A study of Homo sapiens with 45 samples.

Results

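The azacytidine response of RNF25 KO cells was measured in 6 of the 45 polyA RNA libraries of the series, 3 from RNF25 KO cells given azacytidine (azaC) for 4 h and 3 from untreated RNF25 KO cells. These 6 libraries are all those labelled RNF25 KO with 4 h azaC or RNF25 KO untreated. All cells were HAP1, an adherent human line that the labels describe as near-haploid and derived from KBM-7, grown in IMDM with 10% serum. AzaC was given at 5 uM. For comparison, the same treatment was read in AAVS1 cells, the reference line, which is named after a genomic site often edited as a neutral control, and in cells labelled RNF25 GCN2 DKO, a double knockout. RNF25 KO cells given 25 nM halofuginone (HF) for 4 h served as a further comparison, and lines labelled GCN2 KO, ZNF598 KO and eS31 K113R, the last with a changed lysine in a ribosomal protein, were read untreated and with the same azaC treatment. No other agent is named for any of these groups, and an allele name that differs in 2 titles is given where it matters. Each group held 3 libraries labelled as biological replicates. Whether a line is a single clone, and how the replicate cultures were separated, is not given in the sources used here, so p-values measure the spread between these libraries. The series title places the question on how RNF25 limits the integrated stress response to azaC-induced mRNA damage, and the comparisons ask what azaC changed in cells without RNF25 and how far that change differed from the other lines.

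RNF25 is a ubiquitin ligase that acts at stalled ribosomes, where it modifies the ribosomal protein eS31. GCN2 (gene EIF2AK4) is a kinase that is activated by uncharged tRNA and by stalled or collided ribosomes. It phosphorylates the initiation factor eIF2, which lowers general translation and favours translation of ATF4, a transcription factor. ATF4 and its partners drive genes of amino acid uptake and synthesis, of redox balance and of cell death, and this program is called the integrated stress response. Azacytidine is a cytidine analogue that enters both RNA and DNA, where it traps cytosine methyltransferases. Halofuginone inhibits prolyl-tRNA synthetase and is a known activator of GCN2.

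In RNF25 KO cells, azaC raised 50 genes and lowered 2 of 11078 tested within 4 h (0.451% and 0.0181% of the genes tested, edgeR quasi-likelihood test with Benjamini-Hochberg adjusted p under 0.05). The 50 risen genes included the stress transcription factors ATF4, ATF3, DDIT3 and CEBPB, the mTORC1 inhibitors SESN2 and DDIT4, the glutathione-degrading enzyme CHAC1, 7 amino acid transporters and the secreted factors STC2, GDF15 and VEGFA. The 2 genes that fell were HSPA8, a constitutive cytosolic chaperone, and AGPAT5, an acyltransferase of phospholipid synthesis. Of the 52 calls, 22 held with each of the 6 libraries left out in turn. Those of ATF4, GDF15, VEGFA, the transporters SLC1A5, SLC7A5 and SLC6A9, HSPA8 and AGPAT5 did not. Over all tested genes the median log2 fold change was -0.0015, with 5516 genes above 0 and 5555 below, and 1031 genes had an unadjusted p under 0.05. The 50 risen genes took 0.274, 0.300 and 0.285% of all counts in the untreated libraries and 0.760, 0.905 and 0.759% in the azaC libraries. All changes below are log2 fold changes of azaC against untreated ± SE, with n = 3 libraries per group, and all levels are CPM, counts divided by the scaled library size and brought to a common depth. Positions are on GRCh38. In bulk RNA of this kind, less RNA per cell and fewer expressing cells cannot be told apart.

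Of the 52 called genes, 49 (94.2%) had groups that did not overlap, meaning that every azaC library lay on the same side of every untreated library, against 1200 of all 11078 tested genes (10.8%). The 3 called genes whose groups overlapped were TRMU, AGPAT2 and C19orf48. The called genes were spread over 19 chromosomes, with 9 on chromosome 1 and 6 on chromosome 19, and 46 of the 50 risen genes were protein-coding. Their transcripts had a median length of 2904 bases, against 3673 over all tested genes.

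**Figure D1:**
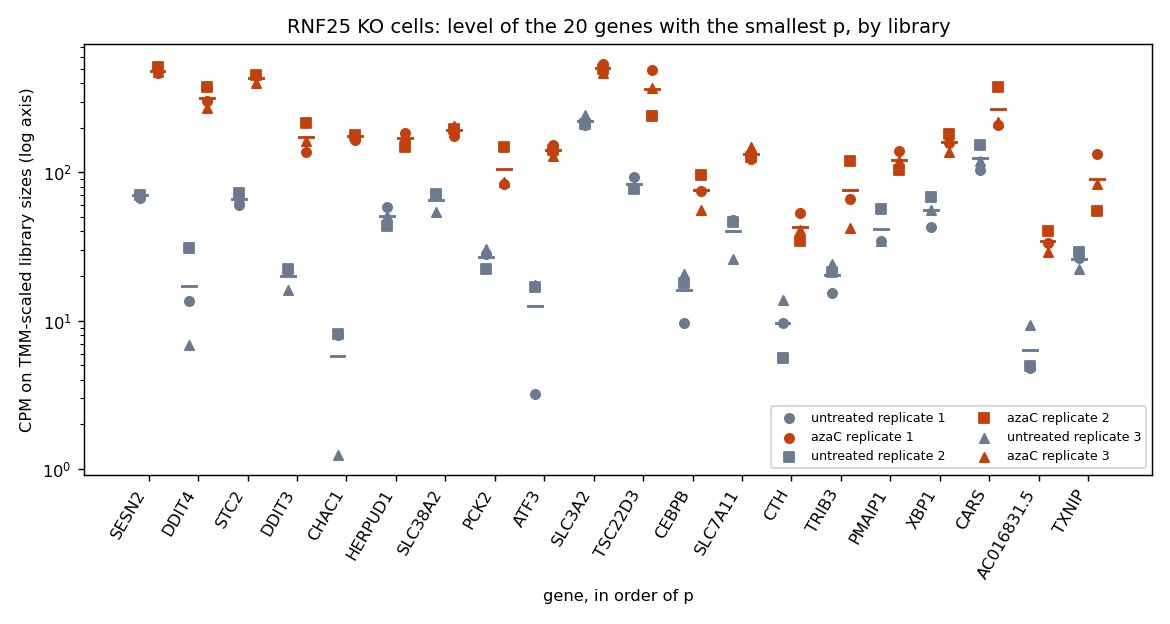
Level of the 20 genes with the smallest p in each of the 6 RNF25 KO libraries, in CPM on a log axis. Untreated libraries are grey and azaC libraries orange, circles, squares and triangles are replicates 1, 2 and 3, and bars are group means. For each of the 20 genes all 3 azaC points lie above all 3 untreated points, as for SESN2 at 470.2 to 511 against 67.6 to 71.0 CPM.

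**Figure D2:**
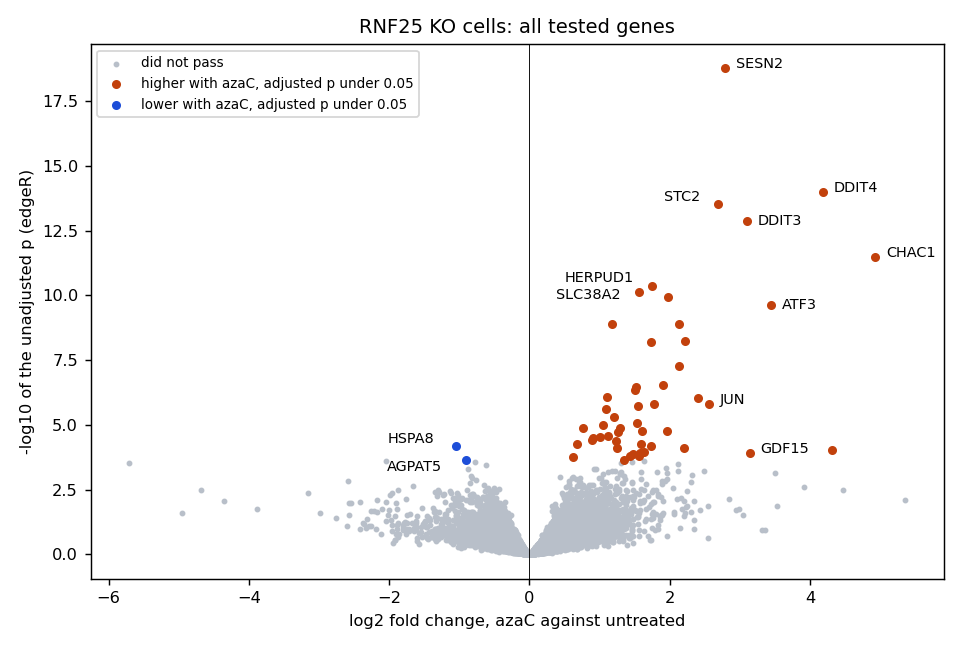
Log2 fold change of azaC against untreated in RNF25 KO on the x axis and the unadjusted p of the edgeR quasi-likelihood test on the y axis as -log10, for the 11078 tested genes. Coloured points are the 50 genes that rose and the 2 that fell, HSPA8 and AGPAT5, and grey points are genes that did not pass.

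Total counts of the 6 libraries ran from 1278486 to 2478875, and a tested gene had a median of 31 to 66 counts per library. AzaC replicate 2 stood apart from the other libraries. It had the highest total of all 45 libraries and the lowest share of counts in mitochondrial genes, 3.14% against a median of 7.08% and a next lowest of 5.17%. Its counts also leaned to transcripts of high GC content, with a slope of 0.347 log2 units per 10% GC, where the library nearest to it had 0.121 and the median library 0.0260. The 23 called genes that lost their call without this library had a median transcript GC content of 58.7%, against 49.6% for the 29 that kept it and 47.3% for all tested genes. Results that rest on it are therefore given with and without it. The RNF25 transcript does not check the RNF25 KO label: it had 0 to 7 counts in any of the 45 libraries, with 1, 1 and 4 in untreated RNF25 KO and 2, 2 and 2 in untreated AAVS1. EIF2AK4 stood at 39.6 ± 3.73 CPM (SD, n = 3) in the untreated libraries labelled RNF25 GCN2 DKO and at 44.0 ± 1.64 CPM in untreated AAVS1, so its transcript level does not check that label either. ZNF598 (0.66 ± 0.19, adjusted p = 0.151) and RPS27A (-0.28 ± 0.29, adjusted p = 0.828), the genes edited in other lines of the series, did not pass with azaC in RNF25 KO.

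Markers of other cell types were low in the 6 libraries or lay in the same range in both groups. Of 10 haematopoietic markers, 8 had no count in the 6 libraries, among them PTPRC, CD34 and GATA1, and their summed level was 0 to 1.24 CPM untreated and 0 to 0.638 CPM with azaC. KBM-7 came from a leukaemia, and HAP1 is known to have lost its blood cell traits. BCR and ABL1, the partners of the fusion carried by KBM-7, were both measured, at a sum of 11.5 to 12.5 CPM untreated and 14.0 to 21.0 CPM with azaC, and neither passed. Of 6 epithelial markers only KRT18 passed the filter on low counts and EPCAM, CDH1, KRT19 and KRT5 were at 0, with a sum of 56.5 to 67.3 against 51.1 to 73.4 CPM. Of 6 mesenchymal markers VIM and COL1A1 passed the filter, with a sum of 286 to 338 against 261 to 323 CPM. Neural markers, led by SOX2, summed to 40.1 to 53.4 against 46.0 to 68.3 CPM, and 3 endothelial markers to 0 against 0 to 1.45 CPM.

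The upstream sequences of the called genes were searched for the motifs of the factors in this program, because 42 of the 50 risen genes had a RefSeq promoter entry (GRCh38.p14) and several of them moved together. The core of the C/EBP-ATF response element, which ATF4 binds with a C/EBP partner, is TGATGNAA, and its stricter form TGATGCAA is contained in it. Both strands of the 250 bases before each start site were read. TGATGNAA was found in 5 of the 42 risen genes (11.9%), in 200 of 8583 tested genes with an entry (2.33%) and in 3.14% of all 35116 entries. TGATGCAA was found in 3 of the 42 (7.14%), against 0.652% of tested genes and 0.772% of all entries. The ER stress element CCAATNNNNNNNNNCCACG was found in 1 of the 42 (2.38%), XBP1, against 0.163% of tested genes. The heat shock motif TTCNNGAANNTTC was found in none of the 42, in 0.443% of tested genes, and at 2 places before HSPA8. Each matching window is shown 5′ to 3′ on the strand of its gene, with the motif in capitals, and TTGCATCA is TGATGCAA read on the other strand.
CHAC1 (chr15:40953251-40953280, plus strand): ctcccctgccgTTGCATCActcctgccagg
HERPUD1 (chr16:56931955-56931984, plus strand): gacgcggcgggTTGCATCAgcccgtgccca
SLC1A5 (chr19:46784893-46784922, minus strand): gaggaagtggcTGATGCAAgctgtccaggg
ATF3 (chr1:212565205-212565234, plus strand): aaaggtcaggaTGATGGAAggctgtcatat
HRK (chr12:116881498-116881527, minus strand): cgggggccggaTGATGTAAcccccctcccc
XBP1 (chr22:28800598-28800626, minus strand): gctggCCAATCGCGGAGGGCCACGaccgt
HSPA8, distal (chr11:123062346-123062374, minus strand): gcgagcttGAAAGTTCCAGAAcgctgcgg
HSPA8, proximal (chr11:123062171-123062199, minus strand): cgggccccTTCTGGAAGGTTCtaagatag

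These windows start their motif 209 bases before the RefSeq start of CHAC1, 176 before that of HERPUD1, 97 before that of SLC1A5, 191 before that of ATF3, 75 before that of HRK, 52 before that of XBP1, and 230 and 55 before that of HSPA8. In the GENCODE annotation, the motifs of HERPUD1, ATF3, HRK and XBP1 lay outside annotated genes. Those of CHAC1, SLC1A5 and the proximal one of HSPA8 fell in an untranslated exon annotated for the same gene, and the distal one of HSPA8 in another exon of that gene. A match of letters is a description and not a measured binding site, and the counts are small.

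The gene lists were chosen with earlier results of these data known. Each list count below stands beside a share of 0.451% risen and 0.0181% fallen over all tested genes. Of the mTORC1 inhibitors and translation repressors, taken as 1 list, 3 of 12 measured members rose and none fell, with a list median of 0.29. SESN2 (ENSG00000130766, chromosome 1, 28259527 to 28282491), a sestrin that senses leucine and restrains mTORC1, was counted at 67.6, 70.9 and 71.0 CPM in the untreated libraries and at 470.2, 511 and 473 CPM with azaC. The groups did not overlap and the spread within each was small. Its change of 2.79 ± 0.18 had the smallest adjusted p of all genes (1.89e-15, edgeR). DDIT4 (ENSG00000168209, chromosome 10, 72273920 to 72276036), which acts on the TSC complex to inhibit mTORC1, stood at 13.7, 31.1 and 6.86 CPM untreated and at 302, 377 and 272 CPM with azaC. That rise of 4.19 ± 0.37 (edgeR adjusted p = 5.55e-11) was far larger than the spread of the untreated libraries, although 41.2% of its exon length is shared with DDIT4-AS1 on the opposite strand and the strand setting of the counting is not given. TSC22D3 was counted in this list too, although it is a leucine-zipper regulator induced by glucocorticoids and by stress. It went from 93.4, 77.1 and 79.8 CPM to 487, 241 and 371 CPM (2.13 ± 0.28, edgeR adjusted p = 1.30e-06), with azaC replicate 2 the lowest of the treated libraries. EIF4EBP1 (0.50 ± 0.32), EIF4EBP2 (-0.26 ± 0.18), SESN3 (-0.26 ± 0.37) and TSC2 (0.28 ± 0.31) did not pass. The list median ran from 0.18 to 0.58 when each library was left out, and the 3 calls held in every case.

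Of 13 measured stress transcription factors 5 rose and none fell, with a median of 0.90. DDIT3 (ENSG00000175197, chromosome 12, 57516588 to 57521737), the factor CHOP that promotes cell death under prolonged stress, rose from 21.7, 22.4 and 16.2 CPM to 137, 216 and 163 CPM. Its change was 3.10 ± 0.29 (edgeR adjusted p = 3.71e-10), and 31.6% of its exon length overlaps MARS and MBD6 on the opposite strand. ATF3 (ENSG00000162772, chromosome 1, 212565334 to 212620777), a repressor and activator induced early in most stress responses, rose from 3.22, 16.8 and 17.4 CPM to 154, 141 and 129 CPM (3.44 ± 0.42, edgeR adjusted p = 2.89e-07). For both genes the lowest azaC library lay several-fold above the highest untreated library. CEBPB, a C/EBP factor that pairs with ATF4, rose from 9.66, 18.0 and 20.6 CPM to 74.9, 95.9 and 55.9 CPM (2.21 ± 0.31, edgeR adjusted p = 5.09e-06), with 11.8% of its exon length shared with CEBPB-AS1. JUN, a subunit of the AP-1 factor, rose from 19.3, 32.3 and 29.3 CPM to 211, 122 and 153 CPM (2.56 ± 0.46, edgeR adjusted p = 8.11e-04). ATF4 itself, which is controlled mainly by translation, moved less, from 470.2, 524 and 497 CPM to 726, 1127 and 935 CPM (0.90 ± 0.19, edgeR adjusted p = 0.0103). The groups of ATF4 did not overlap, but its call was lost without azaC replicate 2 (0.74, adjusted p = 0.218) and without any of the untreated replicates (adjusted p = 0.123, 0.0501 and 0.0704). NFE2L1 (0.34 ± 0.19), ATF5 (-0.14 ± 0.35), JUND (0.48 ± 0.34) and JDP2 (1.24 ± 0.35, adjusted p = 0.14) did not pass. With each library left out in turn, 4 to 6 members passed and the list median ran from 0.74 to 1.06.

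The feedback arm of the response was read in 18 eIF2 kinases, subunits, phosphatase subunits and regulators, of which 2 rose and none fell, with a median of -0.01. TRIB3, a pseudokinase that restrains ATF4 and AKT, rose from 15.3, 21.1 and 24.3 CPM to 66.0, 119 and 41.9 CPM (1.90 ± 0.31, edgeR adjusted p = 2.12e-04). The treated libraries spread widely, but the lowest of them still lay above the highest untreated library. PPP1R15A, the GADD34 subunit that directs dephosphorylation of eIF2, went from 12.1, 19.3 and 13.1 CPM to 57.1, 51.4 and 31.1 CPM (1.64 ± 0.39, edgeR adjusted p = 0.0288). Its call was lost in 5 of the 6 fits that left out a library, at adjusted p = 0.204, 0.0505 and 0.187 without untreated replicate 1, 2 or 3, 0.074 without azaC replicate 1 and 0.177 without azaC replicate 2. The subunits EIF2S2 (0.44 ± 0.12, adjusted p = 0.139), EIF2S3 (-0.13 ± 0.16) and EIF2S1 (-0.03 ± 0.18) and the haem-regulated kinase EIF2AK1 (0.02 ± 0.16) did not pass, and neither did EIF2AK4 (-0.27 ± 0.22), which encodes GCN2.

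Cysteine and glutathione supply had 4 risen members of 11 measured, none that fell, and a median of 0.73. CHAC1 (ENSG00000128965, chromosome 15, 40952962 to 40956519), which degrades glutathione, stood at 8.05, 8.08 and 1.25 CPM untreated and at 165, 179.8 and 179 CPM with azaC. Nearly silent before treatment, it had the largest fitted change of the 52 called genes, 4.93 ± 0.52 (edgeR adjusted p = 7.23e-09). SLC7A11, the cystine importer xCT, rose from 47.5, 46.6 and 26.2 CPM to 123, 126 and 147 CPM (1.73 ± 0.24, edgeR adjusted p = 5.18e-06). Its heavy-chain partner SLC3A2 (ENSG00000168003, chromosome 11, 62856102 to 62888875), which also serves the leucine transporter SLC7A5, rose from 209, 213 and 244 CPM to 541, 498 and 469 CPM (1.18 ± 0.15, edgeR adjusted p = 1.30e-06). CTH, the enzyme that makes cysteine from cystathionine, rose from 9.66, 5.60 and 13.7 CPM to 53.4, 34.5 and 40.7 CPM (2.13 ± 0.32, edgeR adjusted p = 4.02e-05). GGCT (-0.13 ± 0.24), GPX4 (0.81 ± 0.30, adjusted p = 0.328), MPST (0.73 ± 0.26, adjusted p = 0.317) and GSS (0.03 ± 0.26) did not pass. The 4 calls held whichever library was left out, while the list median fell to 0.13 without azaC replicate 2.

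Of 19 measured plasma membrane amino acid transporters 7 rose and none fell, with a median of 0.54, SLC3A2 and SLC7A11 being counted here too. SLC38A2 (ENSG00000134294, chromosome 12, 46358189 to 46372867), the adaptive sodium-coupled importer SNAT2, rose from 70.9, 71.5 and 54.2 CPM to 176, 195 and 206 CPM (1.56 ± 0.18, edgeR adjusted p = 1.13e-07). SLC1A4, a carrier of alanine, serine and cysteine, rose from 18.5, 11.8 and 15.6 CPM to 58.6, 35.7 and 40.0 CPM (1.54 ± 0.28, edgeR adjusted p = 9.44e-04). In both, every azaC library lay above every untreated library. The glutamine importer SLC1A5 went from 78.9, 69.6 and 92.2 CPM to 136, 295 and 123 CPM (1.21 ± 0.23, edgeR adjusted p = 0.00231), with azaC replicate 2 far above the other treated libraries and 23.8% of its exon length under opposite-strand genes. The leucine transporter SLC7A5 showed the same spread, from 85.4, 104 and 101 CPM to 148, 266 and 165 CPM (1.00 ± 0.22, edgeR adjusted p = 0.01). Without azaC replicate 2 the changes of SLC1A5 and SLC7A5 were both 0.69, at adjusted p = 0.438 and 0.458, and SLC7A5 also missed the threshold without untreated replicate 1 (0.137). The glycine transporter SLC6A9 changed by 1.74 ± 0.39 (edgeR adjusted p = 0.0188), and by 1.50 (adjusted p = 0.258) without that library, and its call was also lost without untreated replicate 1 (0.199) or 2 (0.137). SLC38A1 (0.05 ± 0.28), SLC7A1 (0.54 ± 0.21, adjusted p = 0.353), SLC7A3 (0.87 ± 0.32, adjusted p = 0.318) and SLC43A2 (0.14 ± 0.27) did not pass. Thus 4 of the 7 calls held without azaC replicate 2.

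Of 10 enzymes around asparagine, aspartate, alanine and glutamate 2 rose, none fell, all 10 lay above 0 and the median was 0.41. PCK2 (ENSG00000100889, chromosome 14, 24094053 to 24110598), the mitochondrial PEP carboxykinase, rose from 28.2, 22.4 and 30.5 CPM to 83.1, 149 and 85.8 CPM (1.98 ± 0.24, edgeR adjusted p = 1.57e-07). GPT2, the mitochondrial alanine transaminase, went from 125, 83.3 and 95.3 CPM to 273, 149 and 238 CPM (1.12 ± 0.24, edgeR adjusted p = 0.00942), a call lost without untreated replicate 2 (adjusted p = 0.137), untreated replicate 3 (0.0822) or azaC replicate 1 (0.0713). PCK2 was highest and GPT2 lowest in azaC replicate 2. GOT2 (0.35 ± 0.17), BCAT1 (0.00 ± 0.16), GLUD1 (0.37 ± 0.33) and GOT1 (0.40 ± 0.23) did not pass. ASNS, asparagine synthetase and a textbook ATF4 target, had 0 to 1 counts in each of the 6 libraries and could not be tested.

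In the pathway of serine, glycine and one-carbon units 3 of 12 measured enzymes rose and none fell, with a median of 0.25 and 11 of the 12 above 0. PHGDH, which starts serine synthesis, changed by 0.68 ± 0.15 (edgeR adjusted p = 0.016). The mitochondrial enzymes SHMT2 and MTHFD2, which pass the serine carbon to folate, changed by 0.89 ± 0.19 (edgeR adjusted p = 0.0121) and 0.62 ± 0.15 (edgeR adjusted p = 0.0394). All 3 calls were lost without azaC replicate 2, at 0.52 (adjusted p = 0.368), 0.74 (0.236) and 0.67 (0.0703). Without untreated replicate 1 or 2 they were lost too, at adjusted p = 0.0791 and 0.114 for PHGDH, 0.143 and 0.0669 for SHMT2 and 0.23 and 0.289 for MTHFD2. PHGDH also missed without untreated replicate 3 (0.0747), and MTHFD2 without azaC replicate 1 (0.0542) or 3 (0.109). With each library left out in turn 0 to 2 members of the list passed. MTHFD2 was nonetheless separate in level, at 177, 171 and 211 CPM untreated and 283, 267 and 308 CPM with azaC, with 33.2% of its exon length under opposite-strand genes. PSAT1 went from 251, 254 and 284 CPM to 439.8, 275 and 466 CPM (0.58 ± 0.19, adjusted p = 0.248), and MTHFD1 (-0.17 ± 0.19) and ALDH18A1 (0.19 ± 0.22) did not pass either.

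Aminoacyl-tRNA synthetases, which load tRNAs with amino acids, moved little as a group. Of 20 cytosolic synthetases 1 rose, none fell, and the median was 0.19. The risen member was cysteinyl-tRNA synthetase, CARS, which went from 103, 152 and 119.7 CPM to 209.9, 375 and 217 CPM (1.10 ± 0.19, edgeR adjusted p = 5.10e-04). Its call was lost without azaC replicate 2 (0.77, adjusted p = 0.0691). KARS (-0.09 ± 0.14), TARS (0.26 ± 0.21), GARS (0.57 ± 0.17, adjusted p = 0.163) and NARS (-0.01 ± 0.22) did not pass. Of 16 mitochondrial synthetases, which serve another genome and are kept apart here, none passed and the median was -0.00, with RARS2 at 0.15 ± 0.20, IARS2 at -0.18 ± 0.23, LARS2 at 0.14 ± 0.24 and CARS2 at -0.02 ± 0.26.

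Among 23 genes of ER folding and degradation 2 rose and none fell, and the median was -0.03. HERPUD1 (ENSG00000051108, chromosome 16, 56932048 to 56944863), an ER membrane protein of the degradation machinery, rose from 58.0, 43.5 and 50.5 CPM to 183, 149 and 175 CPM (1.74 ± 0.20, edgeR adjusted p = 7.76e-08). XBP1, the transcription factor spliced by the ER sensor IRE1, rose from 42.7, 67.8 and 56.1 CPM to 157, 182 and 137 CPM (1.51 ± 0.26, edgeR adjusted p = 2.90e-04). The lumenal chaperones did not move with them: HSPA5, the sentinel chaperone BiP, was at -0.22 ± 0.16 (adjusted p = 0.735), CALR at -0.00 ± 0.20, CANX at -0.21 ± 0.14 and HSP90B1 at -0.29 ± 0.19. HERPUD1 and XBP1 carry the TGATGCAA and ER stress element windows printed above, and windows of genes that did not pass were not listed.

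Cell death genes had 2 risen members of 15 measured, none that fell, and a median of 0.18, where 0.451% of all tested genes rose. PMAIP1, the BH3-only protein NOXA that antagonises MCL1, rose from 34.6, 56.6 and 34.3 CPM to 139, 104 and 120.1 CPM (1.52 ± 0.25, edgeR adjusted p = 2.29e-04). HRK, another BH3-only protein, rose from 8.86, 6.84 and 9.35 CPM to 31.9, 32.1 and 33.7 CPM (1.96 ± 0.41, edgeR adjusted p = 0.00642), and lost its call without untreated replicate 2 (adjusted p = 0.0814). The survival genes MCL1 (0.21 ± 0.16) and BCL2L1 (0.15 ± 0.21) and the death receptor TNFRSF10B (0.04 ± 0.50) did not pass. Of 15 measured p53 targets only GADD45A, which is also induced by ATF4, rose, from 29.8, 17.4 and 29.3 CPM to 103, 51.8 and 79.4 CPM (1.61 ± 0.33, edgeR adjusted p = 0.00642). That call was lost without untreated replicate 2 (adjusted p = 0.124) or azaC replicate 1 (0.0507). AEN (0.40 ± 0.23), MDM2 (-0.17 ± 0.49), CCNG1 (0.34 ± 0.29) and FDXR (0.41 ± 0.29) did not pass, the list median was 0.14, and CDKN1A, the p21 inhibitor, was too sparse to test at 0 to 10 counts.

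Immediate early genes, which respond to many stimuli without new protein synthesis, had 4 risen members of 16 measured, none that fell, and a median of 0.84. ATF3 and JUN, given above, are among them. BTG1, an antiproliferative factor, rose from 39.5, 47.3 and 61.7 CPM to 104, 106 and 109 CPM (1.10 ± 0.20, edgeR adjusted p = 0.00115). IER2 went from 118, 104 and 97.2 CPM to 201, 254 and 201 CPM (1.04 ± 0.21, edgeR adjusted p = 0.00444), with 30.8% of its exon length under an opposite-strand gene, and lost its call without azaC replicate 2 (0.92, adjusted p = 0.0703). JUND, KLF6 (0.87 ± 0.29, adjusted p = 0.248), IER5 (-0.02 ± 0.27) and IER3 (0.57 ± 0.42) did not pass, and FOS, the partner of JUN, had 0 to 3 counts per library.

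Of 5 measured secreted stress factors 3 rose, none fell, and the median was 1.34. STC2 (ENSG00000113739, chromosome 5, 173314713 to 173329503), a secreted glycoprotein of the stanniocalcin family, rose from 60.4, 72.1 and 67.3 CPM to 447, 449 and 398 CPM (2.69 ± 0.24, edgeR adjusted p = 1.13e-10). Every azaC library lay far above every untreated library. GDF15, a TGF-beta family hormone that signals cellular stress to the brain, had 0, 2 and 18 counts untreated and 51, 88 and 71 with azaC, a depth-scaled ratio of 8.64 with a 95% exact Poisson interval of 5.45 to 14.4 for counting error only (edgeR adjusted p = 0.0301). The single high untreated library was replicate 3, and the call was lost without untreated replicate 1 (adjusted p = 0.239) or 2 (0.287) and without azaC replicate 2 (0.0703) or 3 (0.057). VEGFA, an angiogenic growth factor, went from 11.3, 33.0 and 20.6 CPM to 64.5, 48.6 and 55.3 CPM (1.34 ± 0.33, edgeR adjusted p = 0.0469), a call lost in 5 of the 6 fits that left out a library. The adjusted p was 0.359 and 0.202 without untreated replicate 1 or 3, and 0.0839, 0.0816 and 0.0612 without azaC replicate 1, 2 or 3. ADM (0.32 ± 0.38) and STC1 (0.71 ± 0.91) did not pass, and the hepatokine FGF21 and the activin subunit INHBE had no count in the 6 libraries.

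Other risen genes stood outside these lists. TXNIP, a thioredoxin-binding protein that limits glucose uptake, rose from 26.6, 29.2 and 22.4 CPM to 132, 55.0 and 83.8 CPM (1.77 ± 0.32, edgeR adjusted p = 8.11e-04). AC016831.5, a long intergenic noncoding RNA of unassigned function, rose from 4.83, 4.97 and 9.35 CPM to 33.4, 40.1 and 29.2 CPM (2.40 ± 0.42, edgeR adjusted p = 5.51e-04). Both calls held with any library left out. ZBED3, a zinc-finger protein, went from 8.86, 27.4 and 18.1 CPM to 47.5, 65.8 and 45.7 CPM (1.53 ± 0.30, edgeR adjusted p = 0.0038), and was lost without untreated replicate 1 (adjusted p = 0.11) or azaC replicate 2 (0.0725). Further called genes with fitted changes from 0.76 (SNHG7) to 1.59 (CCDC71L) were ISL2, IFRD1, CDC42EP1, LINC00662 and RGMB. Each of these 7 lost its call without 1 or more libraries. SNHG7, IFRD1, CDC42EP1 and RGMB did so without azaC replicate 2, at adjusted p = 0.169, 0.14, 0.236 and 0.622, and also without 1 or 2 of the untreated libraries, at 0.0532 (CDC42EP1) to 0.27 (RGMB). ISL2, CCDC71L and LINC00662 lost it only without other libraries, with the highest adjusted p at 0.135, 0.202 and 0.215 without untreated replicates 2, 1 and 3. The antisense transcript AC018413.1 had 0, 0 and 1 counts untreated and 9, 18 and 6 with azaC, a depth-scaled ratio of 27.2 with a 95% exact Poisson interval of 4.55 to 1104 (edgeR adjusted p = 0.0238). Its call was lost without azaC replicate 2 (0.155) and without untreated replicate 1 (0.197), 2 (0.236) or 3 (0.0501).

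TRMU, AGPAT2, ATAD3B and C19orf48 stood far higher in azaC replicate 2 than in the other libraries. TRMU, which modifies mitochondrial tRNA, stood at 6.44, 9.33 and 7.48 CPM untreated and 8.90, 78.7 and 17.8 CPM with azaC. AGPAT2, an acyltransferase of lipid synthesis, stood at 28.2, 39.2 and 27.4 CPM and 30.4, 198 and 45.7 CPM, ATAD3B, a mitochondrial ATPase with near-identical neighbouring copies, at 20.1, 21.1 and 18.1 CPM and 34.9, 116 and 21.6 CPM, and C19orf48 at 32.2, 65.3 and 39.9 CPM and 54.1, 193 and 123 CPM. In each the second azaC library was the highest of all 6. Without it their changes were 0.78, 0.27, 0.51 and 0.95, with adjusted p values of 1, 1, 1 and 0.814. TRMU, AGPAT2 and ATAD3B also missed the threshold without any 1 of the untreated libraries (adjusted p from 0.0814 to 0.221), and C19orf48 without untreated replicate 1 (0.281) or 3 (0.21) or azaC replicate 3 (0.0549). Whether the GC lean of that library accounts for these calls was not tested gene by gene. With offsets that correct each library for GC content all 4 also missed the threshold, at adjusted p = 0.107, 0.339, 0.12 and 0.102.

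HSPA8 (ENSG00000109971), the constitutive HSC70 chaperone that folds new chains and uncoats clathrin, stood at 1938, 1683 and 1172 CPM untreated and fell to 676, 1022 and 625 CPM with azaC (-1.04 ± 0.24, edgeR adjusted p = 0.0188). The groups did not overlap, but the untreated libraries themselves spanned a wide range. Replicate 3 was the lowest library untreated and with azaC, in AAVS1 and DKO too, but the highest with HF in RNF25 KO. The call was lost without untreated replicate 1 (adjusted p = 0.23) or 2 (0.0957) and without azaC replicate 1 (0.0839) or 3 (0.102). HSPA8 was the 1 member of 20 measured cytosolic heat shock genes that passed. The list leaned the same way, with 17 of 20 below 0 and a median of -0.47, which ran from -0.52 to -0.39 with each library left out. With azaC 16 of the 20 lay below 0 in AAVS1 too (median -0.27), and 14 in DKO (median -0.07), with none past the threshold in either line. HSPA1A, the inducible HSP70, stood at 486, 385 and 138 CPM untreated and 86.0, 92.3 and 64.2 CPM with azaC (-2.05 ± 0.52), just outside the threshold at adjusted p = 0.0522. HSPA1A and HSPA1B are near-identical, so reads that match both could not be assigned to 1 of them with certainty. The abundant chaperones HSP90AB1 (-0.21 ± 0.13, adjusted p = 0.659), HSP90AA1 (-0.35 ± 0.16, adjusted p = 0.489), HSPD1 (-0.38 ± 0.20, adjusted p = 0.573) and HSPB1 (0.18 ± 0.22, adjusted p = 0.856) did not pass. AGPAT5 stood at 69.2, 104 and 92.2 CPM untreated and at 47.5, 47.4 and 47.0 CPM with azaC (-0.91 ± 0.23, edgeR adjusted p = 0.0469). Its fall was lost without untreated replicate 2 (adjusted p = 0.349) or 3 (0.183) and without any of the azaC replicates (0.0781, 0.252 and 0.0825). Nearest outside the threshold beside HSPA1A were PPP1R16A, MT-TP and ZNF777, also at adjusted p = 0.0522.

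No member passed in the lists of ribosome collision and quality control (24 measured, median -0.04), azacytidine uptake, activation and target enzymes (19, median 0.01), autophagy and lysosome (16, median 0.16), cholesterol synthesis (18, median -0.03), S phase (20, median 0.08), G2 and M phase (19, median -0.17) or ribosome biogenesis (26, median -0.04). DNMT1, the maintenance DNA methyltransferase that azaC traps on DNA, was at -0.20 ± 0.19 (adjusted p = 0.812), the ribonucleotide reductase subunits RRM1 and RRM2 at -0.10 ± 0.15 and -0.08 ± 0.18, and the nucleoside diphosphate kinase NME1 at 0.31 ± 0.16. In the collision list RACK1 (0.17 ± 0.17), TCF25 (-0.00 ± 0.17), VCP (-0.09 ± 0.14) and USP9X (-0.14 ± 0.15) did not pass. LAMP1 (0.14 ± 0.15), GABARAPL2 (-0.46 ± 0.22), LAMP2 (-0.13 ± 0.20) and SQSTM1 (-0.01 ± 0.24) of the autophagy list did not pass, and in the cholesterol list FDPS (0.16 ± 0.29), FDFT1 (-0.03 ± 0.16) and HMGCS1 (-0.04 ± 0.19) did not. The replication genes MCM7 (0.29 ± 0.28), MCM2 (-0.18 ± 0.18), TYMS (0.25 ± 0.25) and FEN1 (-0.18 ± 0.21), the mitotic genes TOP2A (-0.44 ± 0.19), CENPF (-0.39 ± 0.22), MKI67 (-0.17 ± 0.16) and PLK1 (-0.01 ± 0.26) and the nucleolar genes NCL (-0.22 ± 0.18), DDX21 (-0.21 ± 0.13), NPM1 (-0.17 ± 0.15) and DKC1 (0.21 ± 0.15) did not pass either. A p that misses the threshold does not show that these genes were unchanged.

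NRF2 targets, which respond to oxidative stress, had 1 risen member of 17, SLC7A11, and a median of 0.24, with PRDX1 (0.24 ± 0.15), FTH1 (0.18 ± 0.17), TXN (-0.01 ± 0.26) and FTL (0.29 ± 0.19) not passing. Interferon-stimulated genes were sparse: 8 of 22 could be tested, none passed, and the median was -0.01, with IRF1 at 0.39 ± 0.46, ISG15 at 1.05 ± 0.65 and STAT2 at 0.62 ± 0.45. Of 17 germline genes that DNA methylation usually silences only DAZL had counts enough to test (0.06 ± 0.55), so a 4 h release of these genes was not detectable at this depth. All 13 mitochondrially encoded mRNAs lay below 0, none passed, and their median was -0.23, among them MT-ND3 (-0.22 ± 0.36), MT-CO2 (-0.13 ± 0.28), MT-ATP8 (-0.42 ± 0.32) and MT-CYB (-0.07 ± 0.39). Without azaC replicate 2, the library with the low mitochondrial share, that median was 0.09. All 13 also lay below 0 with azaC in AAVS1 (median -0.22), and 7 of the 13 in DKO (median -0.02). With HF in RNF25 KO, against the same untreated libraries, all 13 lay below 0 (median -0.36). None passed in these comparisons, and the cause of the lean was not tested.

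**Figure D3:**
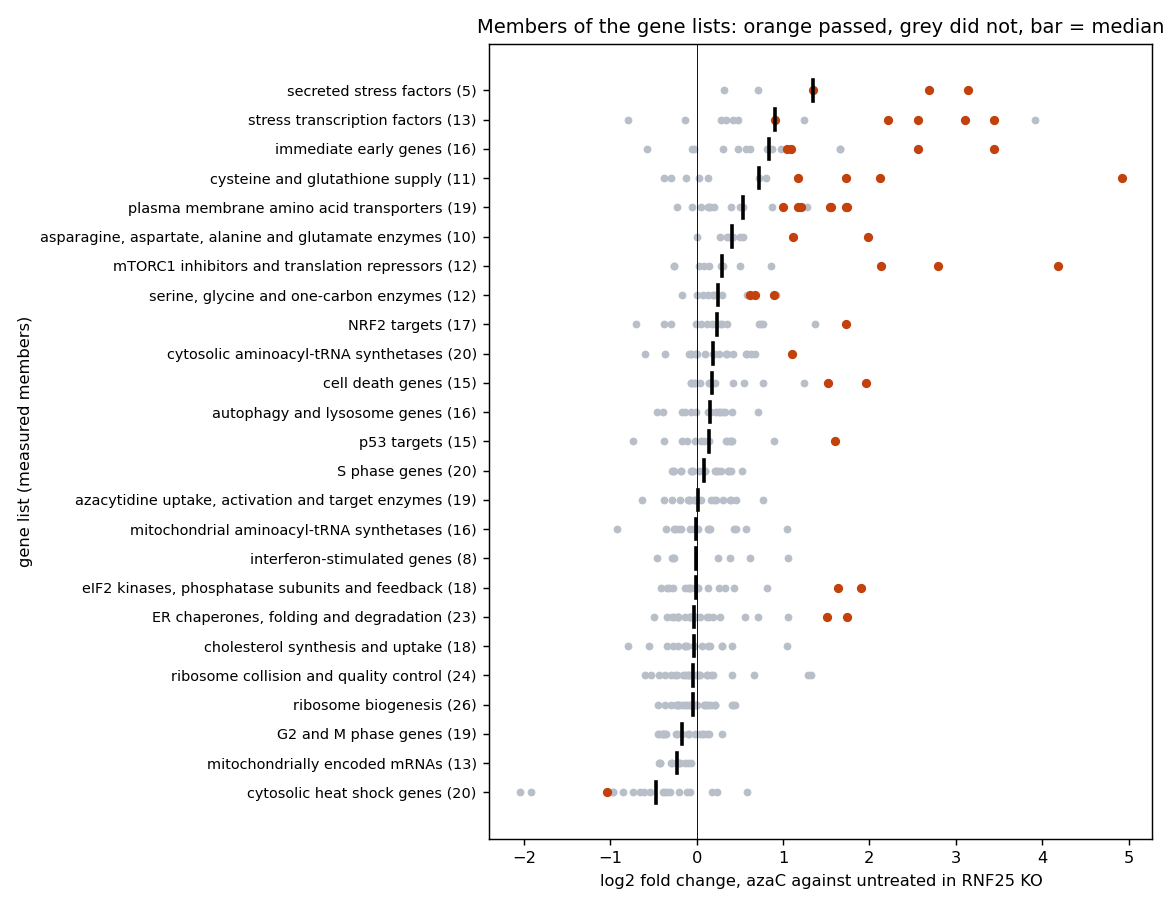
Log2 fold change of azaC against untreated in RNF25 KO for each measured member of 25 gene lists. Orange points passed the edgeR test, grey points did not, and the bar is the list's median. The stress transcription factors and secreted stress factors have the highest medians (0.90 and 1.34), and the cytosolic heat shock genes the lowest (-0.47).

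Of the 52 calls, 22 held whichever of the 6 libraries was left out and 20 held under every alternative analysis. Without azaC replicate 2, 29 of the 52 held. The 22 were SESN2, DDIT4, STC2, DDIT3, CHAC1, HERPUD1, SLC38A2, PCK2, ATF3, SLC3A2, TSC22D3, CEBPB, SLC7A11, CTH, TRIB3, PMAIP1, XBP1, AC016831.5, TXNIP, JUN, SLC1A4 and BTG1, and they include all of the 10 genes with the smallest p. Among them SLC1A4 and BTG1 missed the threshold with only the 6 libraries in the model (edgeR adjusted p = 0.0530 and 0.0581). With offsets that correct each library for GC content, an analysis chosen after the GC lean was seen, 38 of the 52 held. The 14 that did not had a median transcript GC content of 61.0%, and among the genes of the lists above they were IER2, SLC7A5, SHMT2, PHGDH, SLC6A9, PPP1R15A and VEGFA.

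**Figure D4:**
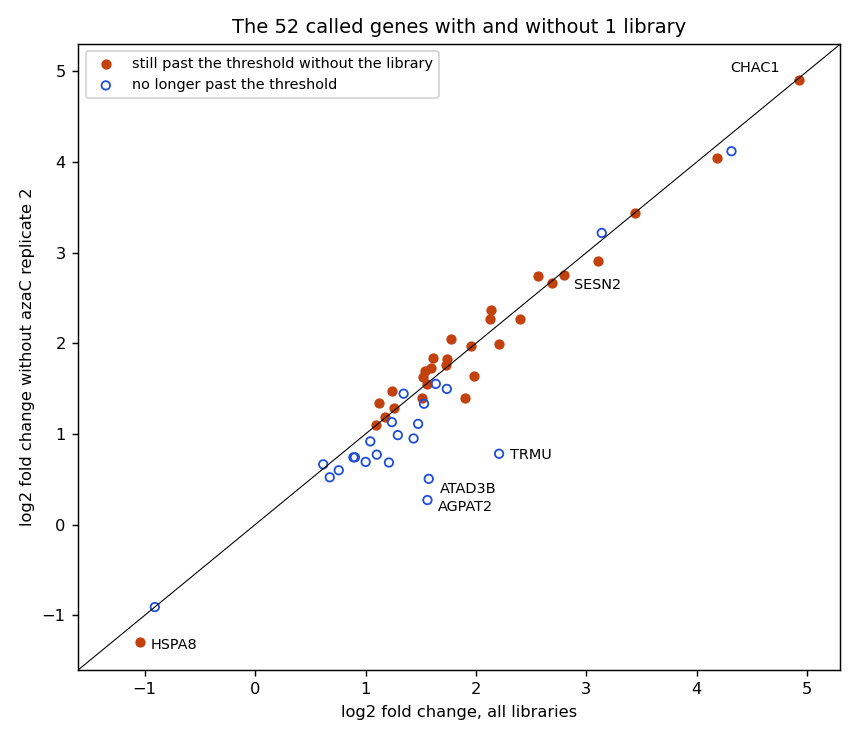
Log2 fold change of the 52 called genes with all 6 libraries on the x axis and without azaC replicate 2 on the y axis, with the line of equal change. Filled points are the 29 genes that still passed without that library and open points the 23 that did not. TRMU and AGPAT2 lie farthest below the line, at 0.78 against 2.21 and 0.27 against 1.56.

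The response was next set against that of AAVS1 cells, which are not labelled as lacking RNF25. AzaC in AAVS1 raised 13 genes (0.117% of those tested) and lowered none. SESN2 rose there from 58.5, 49.9 and 62.3 CPM to 162, 168 and 201 CPM (1.64 ± 0.18), and the azaC libraries of RNF25 KO, at 470.2 to 511 CPM, lay above all of these. DDIT4 reached 102, 79.7 and 81.9 CPM in AAVS1 with azaC (3.04 ± 0.39), against 302, 377 and 272 CPM in RNF25 KO. STC2 reached 184, 215 and 192 CPM (1.93 ± 0.25), DDIT3 55.2, 65.1 and 70.3 CPM (1.82 ± 0.30), and CHAC1 65.4, 64.6 and 75.1 CPM (4.95 ± 0.61). For each of these 5 genes the 3 RNF25 KO libraries with azaC stood higher than the 3 AAVS1 libraries with azaC. All 50 genes that rose in RNF25 KO lay above 0 in AAVS1, where 12 of them passed and their median was 0.80, against 1.57 in RNF25 KO, where they were selected. Untreated AAVS1 replicate 2 stood apart, with a GC slope of -0.464, the lowest of the 45 libraries, where the next lowest was -0.186. Without it azaC in AAVS1 raised 9 genes, all among the 50, whose median there was 0.84, and with GC-corrected offsets 12 of the 50 passed and the median was 0.68.

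The difference between the responses was then tested itself, as the change in RNF25 KO minus the change in AAVS1. No gene passed (0% of 11078 tested, edgeR), and neither limma-voom nor DESeq2 called any. At an unadjusted p under 0.05 edgeR gave 305 genes. The gene with the smallest p was SESN2, at 1.15 ± 0.25 (edgeR adjusted p = 0.345, and 0.216 to 1 with each library left out). Without untreated AAVS1 replicate 2 it was at 1.24 (adjusted p = 0.246), and no gene passed. The next were SYT6 (-5.99 ± 1.63), CASZ1 (3.60 ± 1.01) and the pseudogenes PSMD4P1 and FABP5P1, all at adjusted p = 1.00 and with few counts. The higher treated levels in RNF25 KO thus did not amount to a difference in response that passed the correction over all genes, gene by gene.

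Against the libraries labelled RNF25 GCN2 DKO the difference was plain. AzaC in that line changed no gene past the threshold (0% of those tested; edgeR gave an unadjusted p under 0.05 for 291 genes), and of the 50 genes risen in RNF25 KO 35 lay above 0 there with a median of 0.12. The test of the difference, RNF25 KO minus DKO, called 13 genes, all with the larger change in RNF25 KO (0.117% of those tested). CHAC1 differed most, by 5.48 ± 0.92 (edgeR adjusted p = 5.60e-04), as it stood at 2.73, 9.47 and 2.54 CPM untreated and 1.48, 7.03 and 2.10 CPM with azaC in DKO. DDIT4 differed by 4.63 ± 0.56 (edgeR adjusted p = 7.42e-07), with 22.5, 18.0 and 15.2 CPM untreated and 12.6, 14.8 and 13.3 CPM with azaC in DKO. SESN2 differed by 2.64 ± 0.25 (edgeR adjusted p = 2.25e-09), with 49.2, 64.4 and 60.3 CPM and 60.6, 59.8 and 74.2 CPM. In none of the 3 did a DKO library with azaC come near the RNF25 KO libraries with azaC. DDIT3 differed by 3.11 ± 0.46, STC2 by 2.62 ± 0.35, PCK2 by 2.31 ± 0.34 and SLC7A11 by 2.30 ± 0.35, at edgeR adjusted p between 6.49e-06 (STC2) and 7.45e-05 (SLC7A11). SLC38A2 (1.50 ± 0.26), HERPUD1 (1.56 ± 0.29), CEBPB (2.36 ± 0.49), TSC22D3 (1.87 ± 0.39), XBP1 (1.71 ± 0.37) and SLC3A2 (0.98 ± 0.22) complete the 13, at edgeR adjusted p between 9.36e-04 (SLC38A2) and 0.0405 (SLC3A2). Leaving out 1 of the 12 libraries ended the call of CHAC1 once, without untreated DKO replicate 2 (4.51, adjusted p = 0.419), that of CEBPB and XBP1 6 times each, of TSC22D3 7 times and of SLC3A2 10 times. The highest adjusted p was 0.293 for CEBPB and 0.412 for XBP1, both without untreated DKO replicate 2, 0.197 for TSC22D3 without untreated DKO replicate 3 and 0.288 for SLC3A2 without azaC DKO replicate 1. The other 8 calls held throughout.

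Some risen genes also stood above 0 in DKO. ATF3 went from 6.15, 12.3 and 6.35 CPM to 14.8, 27.4 and 15.4 CPM there (1.16 ± 0.49), and JUN from 10.9, 18.0 and 27.9 CPM to 64.3, 43.6 and 16.8 CPM (1.12 ± 0.49), neither past the threshold after correction. The difference between the RNF25 KO and DKO responses was 2.28 ± 0.66 for ATF3 (edgeR adjusted p = 0.43) and 1.44 ± 0.67 for JUN (0.866), and did not pass for either. In the single GCN2 KO line azaC likewise changed no gene past the threshold (0%; edgeR gave an unadjusted p under 0.05 for 405), and the 50 genes had a median of 0.13. More of the 50 genes passed in the remaining edited lines: in ZNF598 KO 13 of them passed, with a median of 0.97 against 0.117% of all genes called higher, and in eS31 K113R 34 passed, with a median of 1.54 against 0.469% called higher and 0.0451% lower. Of the 3 untreated eS31 K113R libraries, replicates 2 and 3 carry another protein and allele name in their titles and were placed in the group by their described column names. With untreated replicate 1 as the lone untreated library of that line, assumed to vary like the other groups, 19 of the 50 passed with a median of 1.61. None of these lines shares a library with the 6 that chose the 50 genes.

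**Figure D5:**
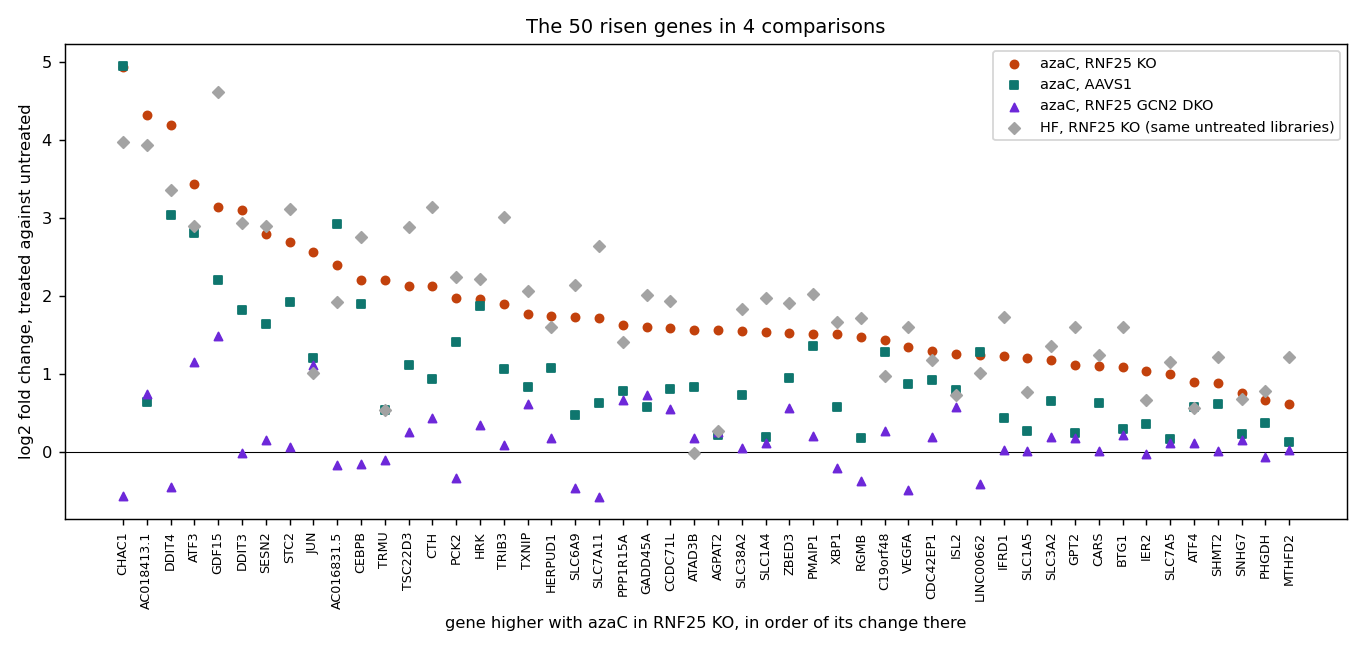
Log2 fold change of the 50 genes that rose with azaC in RNF25 KO, shown for azaC in RNF25 KO, AAVS1 and RNF25 GCN2 DKO and for halofuginone in RNF25 KO. Each point is 1 gene. The azaC column of RNF25 KO is the one that chose the genes and shares its untreated libraries with the halofuginone column. The DKO points centre near 0 (median 0.12) and the AAVS1 points lie between (median 0.80).

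Within RNF25 KO, azaC was compared with halofuginone directly, treated libraries against treated libraries. HF alone raised 1.23% of the tested genes and lowered 0.506%. Several stress genes reached like levels with both drugs: SESN2 stood at 470.2, 511 and 473 CPM with azaC and at 552, 468 and 538 CPM with HF, a difference of -0.10 ± 0.16 (edgeR adjusted p = 0.833), and DDIT3 at 137, 216 and 163 CPM against 159, 136 and 166 CPM. CHAC1 was higher with azaC, at 165, 179.8 and 179 CPM against 91.9, 83.2 and 94.2 CPM, and GDF15 lower, at 37.8, 35.3 and 45.1 CPM against 137, 61.1 and 131 CPM, but neither difference passed (0.96 ± 0.39 and -1.48 ± 0.58, edgeR adjusted p = 0.239 and 0.219). Across all genes 48 were higher with azaC than with HF (0.433% of those tested) and 33 lower (0.298%). Of the 50 genes raised by azaC, ATAD3B (1.58 ± 0.37) was higher than with HF, and SLC7A11 (-0.92 ± 0.22), TRIB3 (-1.11 ± 0.28) and MTHFD2 (-0.60 ± 0.15) were lower, 4 genes picked out after their values were seen. None of the 4 calls held with each of the 6 libraries left out in turn. ATAD3B stood at 34.9, 116 and 21.6 CPM with azaC and 24.1, 13.2 and 21.4 CPM with HF, so the groups overlapped, and without azaC replicate 2 its difference was 0.51 (adjusted p = 0.79). Its call was also lost without HF replicate 1 (0.0599) or 2 (0.226). SLC7A11 lost its call without azaC replicate 1 (0.058) or 2 (0.261) or HF replicate 1 (0.107) or 2 (0.111). TRIB3 lost its call without azaC replicate 1 (0.0778) or 3 (0.154) or HF replicate 1 (0.278) or 2 (0.076). MTHFD2 passed only without azaC replicate 3, with adjusted p between 0.0596 and 0.304 without any of the others.

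HSPA8 and DNAJA1, both chaperone genes, were higher with azaC than with HF. HSPA8 stood at 676, 1022 and 625 CPM with azaC and at 112, 149 and 170.3 CPM with HF, a difference of 2.43 ± 0.25 (edgeR adjusted p = 2.24e-08). DNAJA1, an HSP40 cochaperone of HSPA8, stood at 229.9, 202 and 194 CPM with azaC, at 52.4, 84.5 and 81.9 CPM with HF and at 341, 385 and 228 CPM untreated (1.52 ± 0.22 for azaC minus HF, edgeR adjusted p = 9.18e-05). Against untreated, DNAJA1 was at -0.61 ± 0.21 with azaC (adjusted p = 0.27) and at -2.13 ± 0.22 with HF, and HSPA8 at -1.04 ± 0.24 and -3.47 ± 0.26, both contrasts sharing the untreated libraries. JAG2, a Notch ligand (1.45 ± 0.24), PRDX1, a peroxiredoxin (0.92 ± 0.15), TUBB4B, a beta-tubulin (1.04 ± 0.19), C1GALT1C1, a chaperone of O-glycosylation (1.40 ± 0.27), HMGCS1, of sterol synthesis (1.04 ± 0.20), and PHB, prohibitin (0.97 ± 0.19), were also higher with azaC than with HF. NOG, a BMP antagonist (-1.87 ± 0.35), and TBL1X, a corepressor subunit (-0.76 ± 0.14), were lower. Their edgeR adjusted p values ran from 8.79e-04 (JAG2 and PRDX1) to 0.00802 (PHB). HSPA8, DNAJA1 and JAG2 kept their call with any library left out. With only the libraries compared in the model, HSPA8 and DNAJA1 kept it (edgeR adjusted p = 7.27e-04 and 0.0355) and JAG2 did not (0.210). PRDX1, TUBB4B, TBL1X, NOG and C1GALT1C1 each lost it, at adjusted p = 0.0518, without HF replicate 2, HMGCS1 without HF replicate 1 (0.0599) or 2 (0.0564), and PHB without azaC replicate 2 (0.176) or HF replicate 2 (0.0886). The number of genes called here rested on single libraries, at 3 without HF replicate 2, 17 without azaC replicate 2, 36 without HF replicate 1 and 215 without azaC replicate 1.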

How the data were processed

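PolyA RNA libraries of HAP1 cells came from the CORALL mRNA-Seq V2 kit, as the labels' protocols state. The values analysed are raw counts per gene, which the authors made with STAR 2.7.10b and HTSeq 0.9.1 against GRCh38 and deposited, per the submitters' processing notes. Strand setting, annotation release and any use of molecular identifiers were not given in the sources consulted. Entries without a symbol held 0.0286% of the counts. The 3 RNF25 KO azaC libraries were compared with the 3 untreated RNF25 KO libraries by edgeR's quasi-likelihood test (edgeR 4.0.16, R 4.3.3) after filterByExpr with a minimum count of 10 (11078 of 60676 genes) and TMM scaling. The model held 15 group means over all 45 libraries with 30 residual degrees of freedom, so that all comparisons shared a spread (common biological coefficient of variation 22.1%). Tests were two-sided with a Benjamini-Hochberg adjusted p threshold of 0.05, and SE came from the fold change and F statistic. Library totals of 1135498 to 2478875 limit the precision of low genes.

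Responses were also compared between lines, and azaC with HF, in the same model. Alternatives were DESeq2 size factors, no count filter, DESeq2 1.42.0, limma-voom (limma 3.58.1), a replicate block, only the libraries compared, each library left out and, chosen after seeing the data, GC-corrected offsets and the eS31 K113R comparison with 1 untreated library. The script was tested on simulated data. Over all tested genes, same-numbered untreated and azaC libraries deviated together in AAVS1 and DKO but not in RNF25 KO, where pairing is not excluded. Named genes were all that passed, list members that passed and up to 4 with the highest counts that did not, the edited genes, and the 10 smallest p of each other comparison (5 where none passed). A few genes that this rule names are not reported here. The gene lists are those named in the report. Libraries, lists and members were chosen with earlier results of these data known. Promoter sequences came from RefSeq (GRCh38.p14), and gene positions, exon overlaps and transcript GC content from GENCODE on GRCh38.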

Additional observations from a re-analysis of the deposited data

Results flagged for a closer look

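The azaC response differed between RNF25 KO and the libraries labelled RNF25 GCN2 DKO for 13 genes, by the test of the difference itself (edgeR quasi-likelihood, Benjamini-Hochberg adjusted p under 0.05). The log2 change in RNF25 KO exceeded that in DKO by 2.64 for SESN2, 4.63 for DDIT4, 2.62 for STC2, 3.11 for DDIT3, 2.31 for PCK2, 2.30 for SLC7A11, 5.48 for CHAC1, 1.50 for SLC38A2, 1.56 for HERPUD1, 2.36 for CEBPB, 1.87 for TSC22D3, 1.71 for XBP1 and 0.98 for SLC3A2. The transcript of EIF2AK4 gives no check of the DKO label.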

How the results depend on the processing

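All 52 calls in RNF25 KO kept their direction in every alternative that tested them. The count of 52 became 110 with no filter on low counts, 26 with only the libraries compared, and 29 (without azaC replicate 2) to 90 (without azaC replicate 1) with 1 library left out, while DESeq2 gave 62, limma-voom 45, DESeq2 size factors 52 and GC-corrected offsets 41. For RNF25 KO minus AAVS1 the count of 0 became 6 with no filter, all lower, and stayed 0 in the other alternatives. For RNF25 KO minus DKO the count of 13 became 31 with no filter and ran from 9 to 15 with 1 library left out. For azaC against HF the count of 81 became 181 with no filter, 189 with DESeq2, 53 with GC-corrected offsets, 2 with only the libraries compared, and 3 to 215 with 1 library left out. The cause of these shifts was not tested.

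With the replicate number as a block the counts were 97 for azaC in RNF25 KO (80 higher and 17 lower, with all 52 kept), 0 against AAVS1, 15 against DKO and 414 for azaC against HF. In RNF25 KO the correlations over all tested genes did not show pairing by number, and they cannot exclude it. Each deviation was taken from its group mean, so azaC replicate 2 with its GC lean entered all those of the azaC group. Replicate 2 had the most genes with a count in both groups. These were 15794 untreated, against 14111 and 14540, and 15284 with azaC, where its total was also highest, against 14611 and 14678. Deviations of untreated and azaC libraries of the same number correlated at -0.0132, -0.0443 and 0.138, and those of azaC and HF libraries at -0.0195, -0.219 and 0.148. Untreated and with azaC, RPS27A was lowest in replicate 2 and HSPA1A in replicate 3, genes picked after their values were seen. SLC7A11 did not follow the number, being lowest in untreated replicate 3 and highest in azaC replicate 3. In AAVS1 (0.138, 0.327 and 0.282) and DKO (0.144, 0.215 and 0.154) every library correlated best with its own number, a hint of pairing there from the data, not the design. Genes with few counts, such as GDF15 and AC018413.1, are limited by depth.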
